A study of Mus musculus with 36 samples.

Results

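The unmyelinated optic nerve of naïve mice was compared with the retina of the same animals. The unmyelinated optic nerve (UON) is the short stretch at the optic nerve head where the axons of the retinal ganglion cells leave the eye before they gain myelin, and the comparison rests on 4 of the 36 libraries of the series, the female and the male pool of UON and the female and the male pool of retina. The mice were wild-type C57BL/6 of both sexes, untouched by surgery and labelled as naïve at 0 days, and 2 to 4 months old. Each pool joined equal amounts of RNA from 2 mice of one sex, so n = 2 pools in each tissue, and sex cannot be told apart from the pool. The same mice also gave the myelinated optic nerve (MON), and the rest of the series holds the same 3 tissues after optic nerve crush (3 D and 2 W) or after microbead injection that raises eye pressure, here called glaucoma (3 D, 2 W and 6 W), again with 1 female and 1 male pool in each group. All groups are bulk tissue, so fewer cells of a type and less RNA per cell cannot be told apart in any value below.

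The retina holds the rods and cones, the interneurons that carry their signal and the cell bodies of the retinal ganglion cells, with Müller glia spanning its layers. The optic nerve head holds no neuronal cell bodies. Its astrocytes form a lattice of tubes around the axon bundles, on basement membranes shared with vessels and with the connective tissue of the sclera and meninges, and in mice this glial lattice stands where a collagen-rich lamina cribrosa stands in primates. Oligodendrocytes, which make myelin, normally stop behind this region. An RNA comparison of both tissues therefore sets a glial and connective compartment against a neuronal one, while the mRNA of the ganglion cells lies mostly in their retinal cell bodies.

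Levels are FPKM, fragments scaled to the length of the transcript and to the mapped fragments of the library, and are printed for the female and then the male pool. Tests are on the estimated counts of the genes, with edgeR's quasi-likelihood test on the 6 naïve libraries, and a call needs both an adjusted p below 0.05 and a log2 fold change of more than 1 up or down. Log2 fold changes are UON over retina unless MON is named, so a positive value is higher in UON. The UON pools held 49.5 and 47.7 M counts and the retina pools 43.8 and 37.2 M. The female and the male pool of a tissue come from different mice and were kept as separate replicates. Of 55487 genes 23685 could be tested. 4301 of them were higher in UON (18.2% of the genes tested) and 3204 lower (13.5%), 31.7% in all, and the median log2 fold change over all genes tested was -0.17. That split depends on the scaling. Calls higher in UON were 57.3% of all calls with TMM scaling, 49.2% with upper-quartile scaling, 43.7% with plain library totals and 39.1% with FPKM at a pseudocount of 1, and the median of all genes shifted by -0.24, -0.39 and -0.35 under the last 3. FPKM of both pools of one tissue lay apart from those of the other in 79.3% of the genes tested, so a lack of overlap between 2 and 2 pools is common here.

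Rods and cones turn on their genes through CRX, a homeodomain factor whose known core site reads TAATCC. Promoters, taken as the 250 bases before the start of a transcript in RefSeq on GRCm38.p6, were searched for it on both strands, because the phototransduction genes moved together. The letters TAATCC, or GGATTA on the other strand, stood in 9 of the 19 phototransduction genes that had an entry (47.4%), in 6.25% of all 32851 promoters and in 7.21% of all 27025 genes. They stood in 9.24% of the genes lower in UON, 6.01% of those higher and 6.27% of those not called. In other, smaller lists the letters stood in 2 of 5 surface epithelium genes with an entry, 3 of 8 pigment cell genes, 4 of 11 visual cycle genes and 5 of 14 rod and cone markers, a list that shares genes with the first. 6 of the 9 promoters are shown, with the match in capitals, 5′ to 3′ on the strand of the gene.

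Sag (chr1:87803430-87803679, + strand): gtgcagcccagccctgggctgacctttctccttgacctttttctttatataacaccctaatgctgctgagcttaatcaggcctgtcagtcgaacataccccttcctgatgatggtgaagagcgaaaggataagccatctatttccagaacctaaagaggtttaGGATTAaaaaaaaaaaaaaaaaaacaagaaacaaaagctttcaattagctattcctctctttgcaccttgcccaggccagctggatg
Gngt1 (chr6:3993758-3994007, + strand): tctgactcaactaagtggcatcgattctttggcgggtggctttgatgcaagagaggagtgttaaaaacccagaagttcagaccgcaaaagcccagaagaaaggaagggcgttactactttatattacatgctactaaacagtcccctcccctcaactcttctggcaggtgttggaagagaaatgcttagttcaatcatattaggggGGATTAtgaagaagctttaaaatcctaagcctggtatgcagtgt
Gnat2 (chr3:108092816-108093065, + strand): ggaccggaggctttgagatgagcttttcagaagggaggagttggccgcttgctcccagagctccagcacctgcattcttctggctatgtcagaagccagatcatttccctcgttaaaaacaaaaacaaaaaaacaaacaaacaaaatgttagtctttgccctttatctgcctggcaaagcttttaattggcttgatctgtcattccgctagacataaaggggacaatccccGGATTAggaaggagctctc
Cnga1 (chr5:72642753-72643002, - strand): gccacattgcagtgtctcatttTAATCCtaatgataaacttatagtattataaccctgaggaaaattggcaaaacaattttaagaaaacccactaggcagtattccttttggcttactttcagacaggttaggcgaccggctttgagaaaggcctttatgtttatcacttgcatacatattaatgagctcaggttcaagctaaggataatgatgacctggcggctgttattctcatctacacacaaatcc
Guca1a (chr17:47400607-47400856, - strand): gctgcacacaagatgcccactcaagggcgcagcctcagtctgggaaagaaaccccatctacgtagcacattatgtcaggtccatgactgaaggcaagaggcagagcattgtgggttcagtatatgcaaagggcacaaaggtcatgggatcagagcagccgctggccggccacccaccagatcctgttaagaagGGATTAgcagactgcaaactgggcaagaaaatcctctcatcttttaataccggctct
Cngb1 (chr8:95306586-95306835, - strand): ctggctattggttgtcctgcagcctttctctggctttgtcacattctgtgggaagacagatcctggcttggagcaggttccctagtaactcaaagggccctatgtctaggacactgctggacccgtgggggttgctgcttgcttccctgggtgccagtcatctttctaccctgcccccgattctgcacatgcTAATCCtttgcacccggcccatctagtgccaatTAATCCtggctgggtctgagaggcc

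Sag encodes rod arrestin, Gngt1 the gamma subunit of rod transducin, Gnat2 the alpha subunit of cone transducin, Cnga1 and Cngb1 the cGMP-gated channel of rods, and Guca1a an activator of the guanylate cyclase that restores cGMP. Cngb1 carried the letters at 2 places. Gnat1 and Rcvrn had no entry. The other 6 motifs searched were TGACTCA (AP-1), GAGGAAGT (PU.1), CAGCTG (an E-box), GGAATG (TEAD), and CCATTGTT and ACAATG (both SOX, and the second lies within the reverse complement of the first). TGACTCA stood in 5.76% of the genes higher in UON, 3.10% of those lower and 5.16% of all genes. GGAATG stood in 10 of 16 Hippo pathway genes with an entry (62.5%) and in 14.4% of all genes, with 15.6% of the genes higher in UON and 13.3% of those lower. Among other lists it stood in 2 of 3 Schwann cell genes, 5 of 10 fibroblast genes and 3 of 7 Müller glia genes. It also stood in 2 of 5 skeletal muscle genes and in 0 of 26 Wnt pathway genes. GAGGAAGT stood in 3.35% of the genes higher in UON, 2.05% of those lower and 1 of 7 microglial genes with an entry. CAGCTG stood in 17.04% of the genes higher, 15.62% of those lower and 4 of 5 skeletal muscle genes. CCATTGTT stood in 0.713% of the genes higher, 0.619% of those lower, 0 of 13 astrocyte genes and 0 of 10 oligodendrocyte genes. ACAATG stood in 8.46% of the genes higher, 8.33% of those lower and 8.33% of those not called. A match is a run of letters, not a measured binding site.

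Transcripts of the light response were near absent from UON. All 30 phototransduction genes on the list were lower in UON, with a median log2 fold change of -10.11, against -0.17 over all genes tested, and edgeR adjusted p from 2.49e-05 to 0.0178. Pde6g, a subunit of the rod phosphodiesterase that transducin switches on, stood at 6.196 and 1.301 FPKM in UON and 9086 and 8453 FPKM in retina (log2 fold change -11.26 ± 0.76 (SE), adjusted p = 5.70e-05; ENSMUSG00000025386, chromosome 11, 120447605 to 120453500, - strand, GRCm38). Rod genes and cone genes were both lower, and no UON pool came near a retinal one. Sag stood at 3.83 and 1.55 FPKM in UON and 4804 and 4508 FPKM in retina, and Gngt1 at 1.39 and 0.852 FPKM in UON and 2575 and 2608 FPKM in retina. Among cone genes Gnat2 stood at 0.435 and 0.216 FPKM in UON and 124 and 110.1 FPKM in retina (log2 fold change -8.27 ± 0.299 (SE), adjusted p = 2.49e-05). Of the 2 photoreceptor guanylate cyclases, Gucy2f was listed at 0 in both UON pools, against 11.04 and 12.4 FPKM in retina (adjusted p = 1.88e-04). The smallest differences on the list were those of Gnb5 and Gngt2, G protein subunits, at log2 fold changes of -3.34 and -3.97. The separate list of 20 rod and cone markers, which shares genes with this one, summed to 51.4 and 38.3 FPKM in UON and 42061 and 40965 FPKM in retina. In MON the same sum was 76.2 and 29.3 FPKM, so both nerve regions lay close together.

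Retinal interneurons and their synapses followed the same course. Of 10 bipolar markers 9 were lower in UON, of 9 amacrine markers 8, and of 4 horizontal cell markers 2, and none was higher. Pcp2, an abundant bipolar gene, stood at 0.4595 and 0.0352 FPKM in UON and 583 and 562 FPKM in retina. Slc32a1, the vesicular GABA transporter, and Chat, which makes acetylcholine, were listed at 0 in both UON pools, against 3.09 and 2.99 FPKM and 4.74 and 3.31 FPKM in retina. Slc6a9, a glycine transporter that glia also use, was not called (11.5 and 9.38 FPKM in UON and 16.9 and 16.04 FPKM in retina, adjusted p = 0.374). Photoreceptors and bipolar cells release glutamate at ribbon synapses, where a plate of protein holds vesicles at the membrane. Of 22 genes of the ribbon and of vesicle release 19 were lower in UON (median -4.96). With library-total scaling 21 were lower, and with log2 FPKM at a pseudocount of 1 all 22. All 22 were also lower in the injured eyes. Cplx4, a complexin of the ribbon synapse, stood at 0.233 and 0.194 FPKM in UON and 412 and 477 FPKM in retina, and Slc17a7, which loads vesicles with glutamate, at 0.639 and 0.178 FPKM in UON and 412 and 420.3 FPKM in retina. Snap25, the general release protein, stood at 8.995 and 10.1 FPKM in UON and 828 and 800.3 FPKM in retina. Some release genes kept a clear level in the nerve head. Sv2b, a vesicle glycoprotein, stood at 12.7 and 18.4 FPKM in UON and 68.04 and 68.4 FPKM in retina and at 1.77 and 0.829 FPKM in MON, so UON lay between the tissues (UON over MON log2 fold change 3.67 ± 0.39 (SE), adjusted p = 0.00248). On counts with TMM, Rims1 and Rims2, scaffolds of the release site, were not called against retina (log2 fold change -0.22 and -0.83). With log2 FPKM at a pseudocount of 1 both were called lower than in retina. Both were higher in UON than in MON (2.305 and 1.49, edgeR adjusted p = 0.00485 and 0.0146). In UON against MON 9.63% of all genes were called, 4.83% higher and 4.8% lower.

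Most markers of retinal ganglion cells were lower in UON, through which the axons of these cells run. Of 10 markers 8 were lower and none higher (median -3.79). The calls of Rbpms2, Tubb3 and Pou4f2 were lost when single pools were left out. Without the female retina pool the log2 fold change was -0.99 for Rbpms2 and -1.06 for Tubb3. For Pou4f2 it was -6.28 without the male retina pool. Sncg, gamma-synuclein, stood at 3.87 and 7.54 FPKM in UON and 254 and 203 FPKM in retina (log2 fold change -4.98 ± 0.38 (SE), adjusted p = 8.81e-05), and Slc17a6, the vesicular glutamate transporter of these cells, at 0.292 and 0.1701 FPKM in UON and 14.97 and 16.6 FPKM in retina (log2 fold change -6.22 ± 0.51 (SE), adjusted p = 1.23e-04). Rbpms, an RNA-binding protein used as a marker of ganglion cells, was not called (10.3 and 7.98 FPKM in UON and 21.2 and 18.02 FPKM in retina, adjusted p = 0.0724), and it is also expressed in other cells. Of 12 genes of the axonal cytoskeleton 7 were lower and 1 higher. Nefl and Nefm, the light and medium neurofilament chains, stood at 26.1 and 33.9 FPKM in UON and 202 and 192 FPKM in retina and at 2.72 and 3.75 FPKM in UON and 38.6 and 37.8 FPKM in retina. Their retinal levels exceeded those of UON in both pools (log2 fold change -2.32 and -3.19). Stmn2, a regulator of axonal microtubules, stood at 2.34 and 1.99 FPKM in UON and 46.7 and 38.8 FPKM in retina (log2 fold change -3.89). Nefh, the heavy neurofilament chain, went the other way. It stood at 24.6 and 40.6 FPKM in UON and 15.8 and 16.6 FPKM in retina and 3.63 and 3.86 FPKM in MON, so UON was the highest of the 3 tissues (UON over retina log2 fold change 1.37 ± 0.26 (SE), adjusted p = 0.00599; ENSMUSG00000020396, chromosome 11, 4938754 to 4948064, - strand). The call of Nefh was lost without 1 pool (adjusted p = 0.0667 without the male UON pool) and with library-total scaling. Uchl1, an abundant neuronal ubiquitin hydrolase, was not called (99.2 and 105 FPKM in UON and 113 and 84.5 FPKM in retina, adjusted p = 0.198), and its tissues overlapped.

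**Figure D1:**
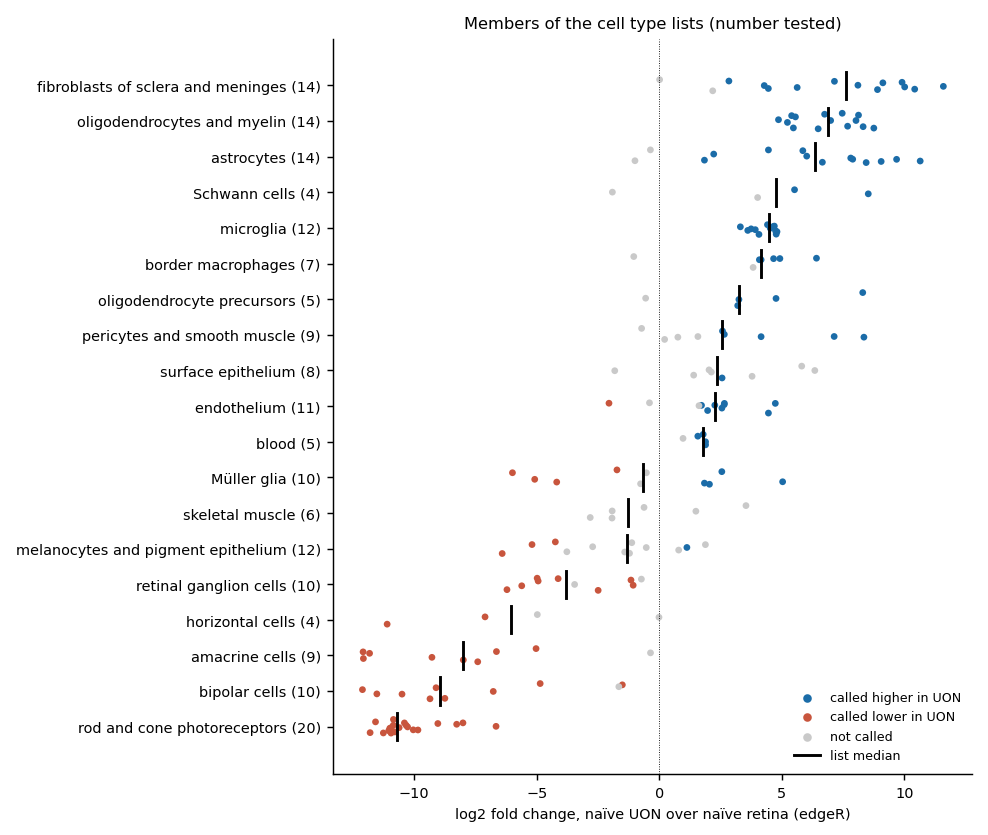
Log2 fold change of UON over retina in the naïve mice (horizontal axis) for each tested gene of the 19 cell type lists, ordered by the list median (black bar). Blue points were called higher in UON, red points lower and grey points were not called. Photoreceptor and interneuron markers sit at the far left with no blue point, while astrocyte, oligodendrocyte, microglia and fibroblast markers sit to the right, and the fitted positions of genes listed at 0 in one tissue depend on the prior count of the fit.

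Astrocyte transcripts were abundant in the nerve head. Of 14 astrocyte markers 12 were higher in UON (median 6.33) and none lower in edgeR with TMM scaling. Under DESeq2, log2 FPKM, and RLE, upper-quartile or library-total scaling 1 was lower. The list summed to 6073 and 6994 FPKM in UON and 653 and 625 FPKM in retina. Gfap, the intermediate filament of astrocytes, stood at 3882 and 4751 FPKM in UON and 7.17 and 6.65 FPKM in retina (log2 fold change 9.68 ± 0.46 (SE), adjusted p = 2.49e-05; ENSMUSG00000020932, chromosome 11, 102887336 to 102900912, - strand, GRCm38). Its level in MON was 3424 and 2759.8 FPKM, below UON in both pools but not called (adjusted p = 0.491). Gja1, connexin 43, which couples astrocytes, stood at 776 and 652 FPKM in UON and 2.03 and 1.703 FPKM in retina and 197 and 116 FPKM in MON (UON over retina log2 fold change 9.05 ± 0.396 (SE), adjusted p = 2.49e-05). Slc39a12, a zinc transporter, stood at 124 and 106 FPKM in UON and 0.737 and 0.585 FPKM in retina (log2 fold change 7.81). Retinal pools were low for all 3 genes, with no overlap. Slc1a2 and Aldoc, which brain astrocytes express strongly, were not called (log2 fold change -0.99 and -0.36, adjusted p = 0.01 and 0.434). Of 8 intermediate filament genes 5 were higher in UON, among them Vim at 1296 and 1555 FPKM in UON and 37.2 and 31.5 FPKM in retina and Nes, nestin, at 88.5 and 91.6 FPKM in UON and 0.788 and 0.644 FPKM in retina. Nes was also higher in UON than in MON (log2 fold change 2.63), and Lmna, a nuclear lamin, stood at 104 and 109 FPKM in UON and 8.596 and 9.096 FPKM in retina. Krt18, a keratin of simple epithelia, was the one filament gene lower in UON (0 and 0.0504 FPKM in UON and 50.5 and 53.9 FPKM in retina, log2 fold change -10.58 ± 0.65 (SE), adjusted p = 4.13e-05).

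The nerve head sampled as unmyelinated held myelin transcripts. All 14 oligodendrocyte and myelin genes were higher in UON than in retina (median 6.87, edgeR adjusted p from 2.49e-05 to 0.00131), and all 14 were lower in UON than in MON. Mbp, myelin basic protein, stood at 8991 and 6359 FPKM in UON and 23.8 and 20.95 FPKM in retina and 38608 and 34496 FPKM in MON. Mobp, another myelin protein, stood at 1311 and 925 FPKM in UON and 3.36 and 3.498 FPKM in retina and 7389 and 5995 FPKM in MON. UON lay between the other tissues in every pool for both genes. Olig1, a transcription factor of the lineage, stood at 30.1 and 18.9 FPKM in UON and 0.218 and 0.2596 FPKM in retina (log2 fold change 6.99). The list summed to 11597 and 8269 FPKM in UON, 45.2 and 42.3 in retina and 56869.9 and 48968 in MON, so the female UON pool was the higher of the pair. The part that the edge of the dissection plays in these values was not tested. Of 5 markers of oligodendrocyte precursors 4 were higher in UON, among them Pdgfra at 6.31 and 4.66 FPKM in UON and 0.873 and 0.5798 FPKM in retina.

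**Figure D2:**
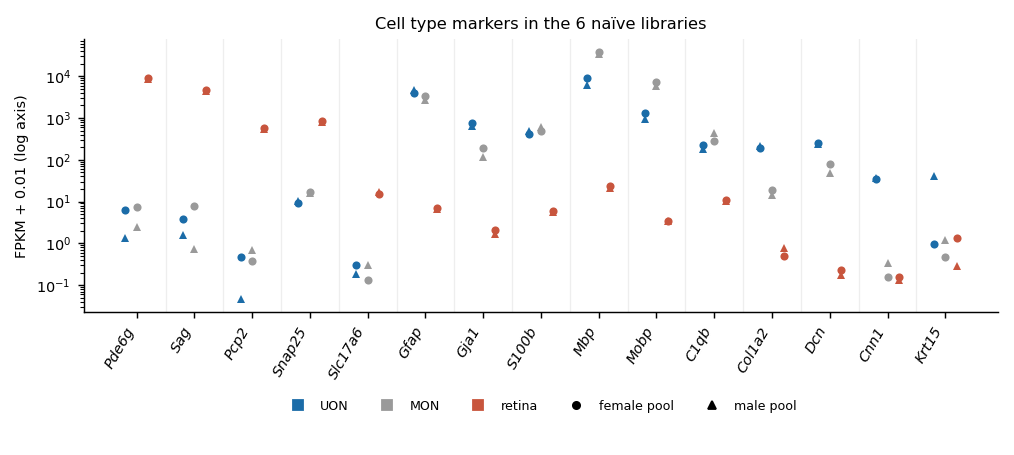
Level of 15 marker genes in the 6 naïve libraries, as FPKM plus 0.01 on a log axis. Blue marks UON, grey MON and red retina, circles the female pool and triangles the male pool. Pde6g and Sag are high in retina alone, Gfap is high in both nerve regions, and Krt15 stands apart in the male UON pool.

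Müller glia and astrocytes share many genes, and the Müller list split. Of 10 genes 4 were higher in UON and 4 lower. Rlbp1, the retinaldehyde-binding protein, stood at 53.8 and 45.003 FPKM in UON and 221 and 215 FPKM in retina (log2 fold change -1.73) and Crym, mu-crystallin, at 1.44 and 0.956 FPKM in UON and 48.7 and 53.1 FPKM in retina (log2 fold change -5.08). Both were lower in each UON pool. Rlbp1 was nevertheless higher in UON than in MON (19.2 and 17.8 FPKM, log2 fold change 1.36). Slc1a3, the glutamate transporter GLAST, stood at 1090.1 and 978 FPKM in UON and 44.7 and 45.9 FPKM in retina (log2 fold change 5.03 ± 0.37 (SE), adjusted p = 7.58e-05) and 258 and 155 FPKM in MON. Dkk3, a secreted Dickkopf family protein, stood at 483 and 631 FPKM in UON and 185 and 173 FPKM in retina (log2 fold change 2.04). UON exceeded both other tissues for these 2 genes. Glul, glutamine synthetase, was not called (244 and 199 FPKM in UON and 427 and 401 FPKM in retina, adjusted p = 0.125).

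Glutamate and GABA handling was divided between the tissues. Of 18 genes 7 were higher in UON and 6 lower. Besides Slc1a3, the GABA and taurine transporter Slc6a13 stood at 116 and 62.8 FPKM in UON and 3.01 and 2.27 FPKM in retina, and the cystine and glutamate exchanger Slc7a11 at 10.7 and 8.41 FPKM in UON and 0.456 and 0.519 FPKM in retina. Both had higher levels in UON than in either other tissue. On the retinal side Slc1a7, a photoreceptor and bipolar glutamate transporter, stood at 0.0848 and 0 FPKM in UON and 47.6 and 44.6 FPKM in retina. Slc38a3, a glutamine transporter, stood at 23.8 and 17.3 FPKM in UON and 224 and 199 FPKM in retina (log2 fold change -2.997).

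Genes for water and ion handling by glia were mostly higher in UON, 14 of 18 with 1 lower. Mlc1 and Hepacam, membrane partners at astrocyte end-feet, stood at 682 and 795 FPKM in UON and 34.1 and 32.9 FPKM in retina and at 41.7 and 41.6 FPKM in UON and 0.402 and 0.528 FPKM in retina. Neither gene overlapped between the tissues. The aquaporins differed from each other. Aqp4, the water channel of astrocytes and Müller glia, stood at 70.8 and 64.6 FPKM in UON and 26.5 and 33.2 FPKM in retina (log2 fold change 1.84), while Aqp1 stood at 0.218 and 0.4303 FPKM in UON and 23.5 and 25.8 FPKM in retina (log2 fold change -5.94 ± 0.41 (SE), adjusted p = 6.05e-05). Aqp4 was not called lower in UON than in MON. The study cites earlier work in which UON astrocytes of mice lacked aquaporin, and states that Aqp4 also differed in its own data. It does not say there which tissues differed. Which cells gave Aqp4 here was not tested. Trpv4 and Piezo2, stretch-gated cation channels, stood at 2.31 and 2.298 FPKM in UON and 0.421 and 0.311 FPKM in retina and at 3.53 and 3.26 FPKM in UON and 0.0458 and 0.0614 FPKM in retina, higher in UON for both (log2 fold change 2.95 and 5.39).

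Of 15 connexins and pannexins 6 were higher in UON, 2 were lower and 7 were not called. Gjb6, connexin 30 of astrocytes, stood at 41.1 and 30.2 FPKM in UON and 0.0417 and 0 FPKM in retina. Gjb2, connexin 26, stood at 18.7 and 9.17 FPKM in UON, 1.45 and 2.48 FPKM in MON and was listed at 0 in both retina pools (adjusted p = 1.36e-04). Gjc3, a connexin of oligodendrocytes, was higher in UON than in retina (log2 fold change 8.59) and lower than in MON (log2 fold change -3.69). Gjd2, connexin 36 of neuronal electrical synapses, was listed at 0 in both UON pools, against 20.2 and 20.8 FPKM in retina (adjusted p = 1.54e-04).

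Microglial genes and the complement cascade were higher in UON. All 12 microglial markers were called (median 4.47, edgeR adjusted p from 2.71e-05 to 0.00146). Csf1r, the receptor that keeps microglia alive, stood at 41.2 and 33.7 FPKM in UON and 2.59 and 2.004 FPKM in retina, and Tmem119, a marker of resident microglia, at 37.6 and 23.3 FPKM in UON and 1.12 and 1.67 FPKM in retina. Cx3cr1, the fractalkine receptor, stood at 20.95 and 14.97 FPKM in UON and 1.22 and 0.979 FPKM in retina, and was the 1 marker of the list called higher in UON than in MON (1.34 and 5.45 FPKM). The list as a whole summed to 919 and 737 FPKM in UON and to more in MON, 1129.9 and 1616 FPKM, with a median log2 fold change of -0.85 for UON over MON and none called lower. Of 7 markers of border macrophages 5 were higher, all at low levels, with Ms4a7 at 5.03 and 6.79 FPKM in UON and 0.117 and 0.0951 FPKM in retina. When single pools were left out the call of Ms4a7 was lost (log2 fold change 3.70 without the male UON pool). So were the calls of Mrc1, Cd163 and Pf4. Of 19 complement genes 15 were higher in UON (median 5.29) and none was lower, while with library-total scaling 2 were lower. C1qa, C1qb and C1qc, the chains of the first component, are also on the microglial list. C4b, the fourth component, stood at 280.4 and 308 FPKM in UON and 0.982 and 1.13 FPKM in retina (log2 fold change 8.96 ± 0.39 (SE), adjusted p = 2.49e-05), and C3 at 29.7 and 45.4 FPKM in UON and 0.179 and 0.3698 FPKM in retina (log2 fold change 7.47 ± 0.32 (SE), adjusted p = 2.49e-05). The near-identical copy C4a can share reads with C4b, so its value is uncertain. The inhibitor Serping1 stood at 439 and 444 FPKM in UON and 3.54 and 3.62 FPKM in retina and was also higher in UON than in MON (log2 fold change 1.77). Cd59a, an inhibitor of the terminal pore, was not called (log2 fold change -0.94, adjusted p = 0.00895).

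Vessel markers were higher in UON in most cases. Of 11 endothelial genes 8 were higher and 1 lower. Vwf, von Willebrand factor, stood at 11.4 and 11.2 FPKM in UON and 0.953 and 0.664 FPKM in retina (log2 fold change 4.73), and Cldn5, a tight junction protein of the blood-brain barrier, at 16.7 and 23.9 FPKM in UON and 8.35 and 7.48 FPKM in retina (log2 fold change 1.72). The VEGF receptors did not follow them. Kdr stood at 2.73 and 2.52 FPKM in UON and 13.7 and 14.1 FPKM in retina (log2 fold change -2.05 ± 0.32 (SE), adjusted p = 0.00228), and Flt1 was not called (5.27 and 6.37 FPKM in UON and 10.2 and 10.7 FPKM in retina, adjusted p = 0.197). Of 9 genes of pericytes and smooth muscle 5 were higher. Tagln and Cnn1, actin-binding proteins of contractile cells, stood at 230.4 and 308 FPKM in UON and 2.67 and 2.301 FPKM in retina and at 33.9 and 37.7 FPKM in UON and 0.144 and 0.124 FPKM in retina, and in MON at 10.7 and 25.7 and 0.1501 and 0.324 FPKM. Myh11, the myosin heavy chain of mature smooth muscle, stood at 0.131 and 0.1399 FPKM in UON and 0.312 and 0.279 FPKM in retina and was not called (adjusted p = 0.476). Blood genes moved with the tissue too. The 5 red cell genes summed to 298 and 659.7 FPKM in UON and 211 and 143 in retina, and 4 of them were called higher. All 4 calls were lost when 1 pool was left out, as for Hba-a1, a globin chain with a near-identical copy (adjusted p = 0.0506 without the male UON pool). The part of blood in the vessel values was not tested.

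Connective tissue genes were higher in UON than in retina, and some of them also than in MON. Of 14 fibroblast markers of sclera and meninges 12 were higher in UON than in retina (median 7.62) and 7 higher than in MON. Dcn, decorin, stood at 247 and 246 FPKM in UON and 0.226 and 0.163 FPKM in retina and 81.1 and 48.7 FPKM in MON (log2 fold change 10.42 ± 0.45 (SE), adjusted p = 2.49e-05). Col1a2, a chain of collagen I, stood at 188 and 217 FPKM in UON and 0.501 and 0.7695 FPKM in retina and 18.5 and 14.7 FPKM in MON (log2 fold change 9.12 ± 0.37 (SE), adjusted p = 2.49e-05). Fmod, fibromodulin, which binds collagen fibrils, stood at 219 and 311 FPKM in UON and 1.63 and 0.857 FPKM in retina and 10.03 and 14.4 FPKM in MON (log2 fold change 8.101 ± 0.499 (SE), adjusted p = 4.13e-05). Retina was under 2 FPKM in each pool for all 3 genes. The tendon genes Tnmd and Thbs4 were not called. The UON pools hold glia and connective tissue together, and which cells gave these transcripts was not measured.

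Most basement membrane genes on the list were higher in UON. Of 23 basement membrane genes 17 were higher in UON and none lower (median 3.92; 16 and 1 with library-total scaling), and 10 of them exceeded MON as well. Lamb2, laminin beta 2, stood at 127 and 108 FPKM in UON and 2.08 and 3.53 FPKM in retina (log2 fold change 6.24 ± 0.34 (SE), adjusted p = 3.01e-05), and Nid1, nidogen, which links laminin to collagen IV, at 19.5 and 18.4 FPKM in UON and 0.292 and 0.136 FPKM in retina (log2 fold change 7.42 ± 0.33 (SE), adjusted p = 2.49e-05). Col4a6 stood at 19.7 and 20.1 FPKM in UON and 0.242 and 0.0489 FPKM in retina (log2 fold change 7.84), while Col4a3 and Col4a4, chains of other collagen IV trimers, were not called (log2 fold change -1.65 and -0.98, adjusted p = 0.0618 and 0.245). Of 30 fibrillar and other matrix genes 24 were higher than in retina and 18 higher than in MON. Sparc, a calcium-binding matrix protein, stood at 3229 and 3837 FPKM in UON and 143 and 119 FPKM in retina, and Fn1, fibronectin, at 86.3 and 61.5 FPKM in UON and 3.63 and 3.72 FPKM in retina. Tnc, tenascin C, stood at 5.15 and 6.78 FPKM in UON and 1.398 and 1.55 FPKM in retina and 0.0689 and 0.355 FPKM in MON. Tnr, the tenascin of oligodendrocytes and perineuronal nets, was lower in UON than in both (0.661 and 0.252 FPKM in UON and 2.68 and 2.41 FPKM in retina, log2 fold change -2.44 over retina and -3.62 over MON).

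Receptors for that matrix followed. Of 25 integrins and other matrix receptors 21 were higher in UON and 1 lower. With FPKM at a pseudocount of 1 the count of higher genes was 17. Itgb4, which pairs with integrin alpha 6 as a laminin receptor, stood at 120.3 and 122 FPKM in UON and 0.138 and 0.205 FPKM in retina (log2 fold change 9.74 ± 0.37 (SE), adjusted p = 2.49e-05; ENSMUSG00000020758, chromosome 11, 115974709 to 116008412, + strand). Itgb1, the common beta chain, stood at 115 and 107 FPKM in UON and 9.02 and 9.11 FPKM in retina (log2 fold change 4.06 ± 0.25 (SE), adjusted p = 4.31e-05). Dag1, dystroglycan, stood at 76.9 and 74.8 FPKM in UON and 8.95 and 7.91 FPKM in retina (log2 fold change 3.69 ± 0.27 (SE), adjusted p = 6.99e-05). Itga4, an integrin that binds fibronectin and VCAM1, stood at 0.362 and 0.104 FPKM in UON and 2.79 and 3.31 FPKM in retina and was the member lower in UON (log2 fold change -3.597). Of 20 genes linking integrins to actin 16 were higher and 1 lower. Vcl, vinculin, stood at 24.4 and 35.5 FPKM in UON and 1.45 and 1.99 FPKM in retina, and Flna, filamin A, at 123 and 111 FPKM in UON and 10.5 and 14.7 FPKM in retina. Tln2, the second talin, stood at 2.29 and 2.63 FPKM in UON and 15.02 and 17.9 FPKM in retina (log2 fold change -1.49). The kinases Ptk2, Rock1 and Rock2 were not called (log2 fold change 0.99, 0.34 and 0.14). Lims1 was called higher on counts (log2 fold change 1.09 ± 0.22 (SE), adjusted p = 0.00845) but stood at 16.7 and 17.8 FPKM in UON and 23.2 and 21.4 FPKM in retina, so its direction turned with FPKM.

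**Figure D3:**
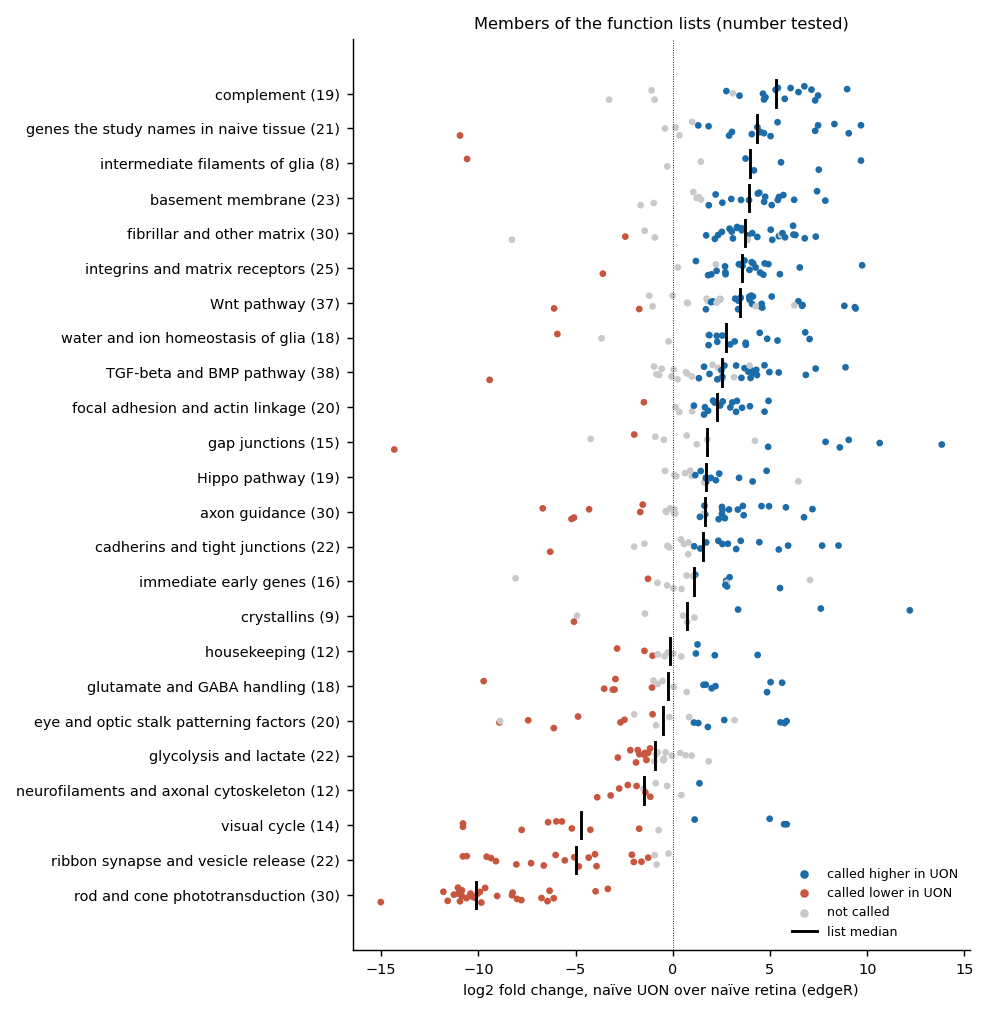
Log2 fold change of UON over retina in the naïve mice (horizontal axis) for each tested gene of the 24 function lists, ordered by the list median (black bar). Blue points were called higher in UON, red points lower and grey points were not called. Phototransduction and ribbon synapse genes hold no blue point, and complement, matrix, Wnt and TGF-beta lists lie mostly to the right of 0.

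TGF-beta and BMP ligands, receptors and targets were read as 1 list of 38 genes, of which 22 were higher in UON and 1 lower. Among ligands Tgfb2, the main isoform of the eye, stood at 236 and 244 FPKM in UON and 16.8 and 15.7 FPKM in retina and 49.9 and 43.7 FPKM in MON (log2 fold change 4.33 ± 0.26 (SE), adjusted p = 4.05e-05; ENSMUSG00000039239, chromosome 1, 186622792 to 186705989, - strand). Gdf10, a BMP family ligand, stood at 92.7 and 109 FPKM in UON and 0.211 and 0.347 FPKM in retina and 7.31 and 4.07 FPKM in MON (log2 fold change 8.88 ± 0.53 (SE), adjusted p = 3.80e-05). Bmp7 stood at 89.7 and 48.8 FPKM in UON and 3.44 and 2.85 FPKM in retina (log2 fold change 4.97 ± 0.35 (SE), adjusted p = 6.37e-05). UON was the highest of the 3 tissues for these ligands. Ltbp1, which tethers latent TGF-beta to the matrix, stood at 120.1 and 109 FPKM in UON and 1.07 and 0.868 FPKM in retina (log2 fold change 7.35). Of the receptors, Tgfbr2 stood at 22.6 and 16.7 FPKM in UON and 0.277 and 0.357 FPKM in retina (log2 fold change 5.45), while Bmpr1a and Bmpr2 were not called (log2 fold change -0.57 and -0.06). The target Tgfbi stood at 13.9 and 21.3 FPKM in UON and 0.232 and 0.125 FPKM in retina and Id3, a target of BMP signalling, at 195 and 255 FPKM in UON and 32.3 and 27.6 FPKM in retina. The signal carriers Smad1, Smad2 and Smad4 were not called (log2 fold change 0.98, 0.24 and -0.699).

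Of 37 Wnt pathway genes 24 were higher in UON and 2 lower (median 3.48). Wnt7b and Wnt6, ligands, stood at 25.6 and 27.1 FPKM in UON and 0 and 0.0825 FPKM in retina and at 44.6 and 27.1 FPKM in UON and 0.188 and 0 FPKM in retina. Fzd1, a receptor, stood at 72.4 and 111 FPKM in UON and 0.792 and 1.64 FPKM in retina (log2 fold change 6.65 ± 0.49 (SE), adjusted p = 7.52e-05). Wif1, a secreted inhibitor, stood at 25.3 and 37.2 FPKM in UON and 0.0697 and 0.0442 FPKM in retina (log2 fold change 9.36 ± 0.73 (SE), adjusted p = 9.61e-05). All 4 were near 0 or under 2 FPKM in retina. Axin2, a target that feeds back on the pathway, stood at 4.46 and 2.86 FPKM in UON and 0.771 and 1.95 FPKM in retina (log2 fold change 1.97). Lgr5, a receptor for R-spondins, was lower in UON (0.0535 and 0.0768 FPKM in UON and 7.25 and 7.89 FPKM in retina, log2 fold change -6.11 ± 0.502 (SE), adjusted p = 1.21e-04), as was Fzd5 (log2 fold change -1.73, with adjusted p = 0.0906 without the female retina pool). Of 19 Hippo pathway genes 11 were higher and none lower, among them Wwtr1, the coactivator TAZ, at 32.7 and 20.8 FPKM in UON and 3.24 and 3.26 FPKM in retina, and the target Ccn2 at 84.4 and 196 FPKM in UON and 9.78 and 10.1 FPKM in retina. With log2 FPKM at a pseudocount of 1 8 were higher. Of the 11, 3 calls were lost when single pools were left out. For Yap1, the other coactivator, adjusted p = 0.0978 without the female UON pool. For Tead2, a DNA-binding partner of both, adjusted p = 0.0544 without the female UON pool, 0.146 without the female retina pool. For Stk3, a kinase of the pathway, adjusted p = 0.339 without the male UON pool, 0.154 without the female retina pool.

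Transcription factors that pattern the eye and the optic stalk in the embryo were unequal in the adult tissues. Of 20 such factors 7 were higher in UON and 7 lower, and 5 and 9 with library-total scaling, and 3 and 8 with log2 FPKM at a pseudocount of 1. Pax2, the factor of the optic stalk, which adult optic nerve astrocytes keep, stood at 1.66 and 2.38 FPKM in UON and 0.0538 and 0.0516 FPKM in retina (log2 fold change 5.85 ± 0.75 (SE), adjusted p = 9.49e-04; ENSMUSG00000004231, chromosome 19, 44756045 to 44837871, + strand). Foxd1, a forkhead factor, stood at 0.892 and 0.511 FPKM in UON and 0.0158 and 0.0173 FPKM in retina (log2 fold change 5.54 ± 0.97 (SE), adjusted p = 0.00415). Nr2f2, a nuclear receptor, stood at 16.3 and 17.005 FPKM in UON and 3.11 and 3.75 FPKM in retina (log2 fold change 2.65 ± 0.29 (SE), adjusted p = 4.28e-04). Levels of the first 2 were low but apart from retina in both pools. Wt1, a zinc finger factor, stood at 4.36 and 3.38 FPKM in UON and 0.0439 and 0.0666 FPKM in retina and was listed at 0 in both MON pools (log2 fold change 5.75 ± 0.76 (SE), adjusted p = 0.00197 over retina). On the other side Otx2 stood at 0.165 and 0.0279 FPKM in UON and 82.8 and 86.98 FPKM in retina (log2 fold change -8.92 ± 0.74 (SE), adjusted p = 1.25e-04) and Rax at 0.741 and 0.744 FPKM in UON and 76.6 and 84.7 FPKM in retina (log2 fold change -6.12 ± 0.27 (SE), adjusted p = 2.49e-05). These are factors of photoreceptors, bipolar cells, Müller glia and their progenitors. Pax6, of amacrine and ganglion cells, stood at 7.298 and 8.04 FPKM in UON and 71.8 and 70.5 FPKM in retina (log2 fold change -2.69), and Vax2, a ventral factor of the optic cup, at 1.91 and 2.05 FPKM in UON and 79.1 and 74.6 FPKM in retina (log2 fold change -4.87). Six6 and Six3, factors of the whole eye field, were not called (log2 fold change -0.18 and -0.86), and Six6 stood at 8.06 and 10.7 FPKM in UON and 13.3 and 14.3 FPKM in retina. The calls of Lhx2, Sox2 and Meis1 were lost when single pools were left out. For Lhx2 (6.32 and 8.36 FPKM in UON and 3.57 and 5.16 FPKM in retina) adjusted p = 0.0967 without the female UON pool, 0.146 without the male UON pool, 0.136 without the female retina pool, 0.121 without the male retina pool. For Sox2 (7.57 and 10.4 FPKM in UON and 5.21 and 3.96 FPKM in retina) adjusted p = 0.0645 without the male UON pool, 0.237 without the male retina pool. For Meis1 (7.55 and 7.17 FPKM in UON and 19.7 and 19.8 FPKM in retina) adjusted p = 0.103 without the male UON pool, 0.0845 without the female retina pool.

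Retinoid genes were called in both directions. Of 14 genes of the visual cycle and retinoid transport 4 were higher in UON and 9 lower. Stra6, the receptor that takes up retinol from its carrier, stood at 152 and 109.7 FPKM in UON and 2.79 and 3.89 FPKM in retina and 9.83 and 14.7 FPKM in MON (log2 fold change 5.72 ± 0.31 (SE), adjusted p = 3.07e-05; ENSMUSG00000032327, chromosome 9, 58063788 to 58153996, + strand). Rbp4, the carrier itself, stood at 32.8 and 28.5 FPKM in UON and 1.303 and 1.304 FPKM in retina (log2 fold change 4.98 ± 0.42 (SE), adjusted p = 1.41e-04). UON exceeded retina and MON in both pools for both genes. Aldh1a2, which turns retinaldehyde into retinoic acid, was among the 10 most raised genes of those over 50 FPKM and stood at 116 and 83.3 FPKM in UON and 0.0707 and 0.207 FPKM in retina (log2 fold change 9.94 ± 0.58 (SE), adjusted p = 3.65e-05). Rbp3, Rdh12, Rpe65 and Ttr were lower in UON. Rbp3, the carrier between photoreceptors and pigment epithelium, stood at 0.748 and 0.131 FPKM in UON and 691 and 734 FPKM in retina, and Rdh12, a retinol dehydrogenase of photoreceptors, at 1.83 and 1.56 FPKM in UON and 422 and 419.9 FPKM in retina. Rpe65, the isomerase of the pigment epithelium, stood at 0.114 and 0.0785 FPKM in UON and 8.15 and 13.5 FPKM in retina, and Ttr, transthyretin, at 2.43 and 1.73 FPKM in UON and 43.4 and 62.3 FPKM in retina. Rdh5, a retinol dehydrogenase of the pigment epithelium, was higher in UON (41.5 and 46.3 FPKM in UON and 25.8 and 29.8 FPKM in retina, log2 fold change 1.12), a call lost when 1 pool was left out (adjusted p = 0.0869 without the male UON pool, 0.118 without the female retina pool).

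**Figure D4:**
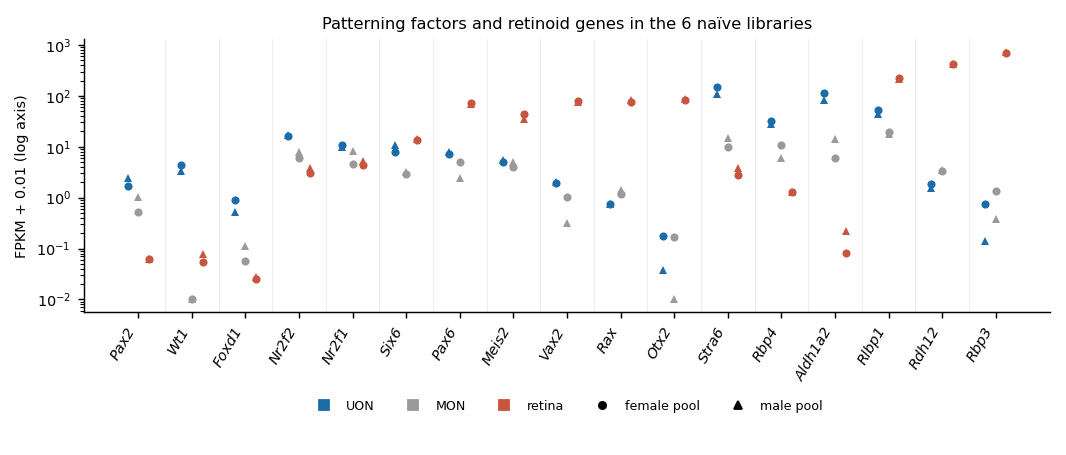
Level of 11 patterning factors and 6 retinoid genes in the 6 naïve libraries, as FPKM plus 0.01 on a log axis. Blue marks UON, grey MON and red retina, circles the female pool and triangles the male pool. Pax2, Wt1 and Foxd1 and the genes Stra6 and Rbp4 are highest in UON, and the factors from Pax6 to Otx2 and the genes Rlbp1, Rdh12 and Rbp3 are highest in retina.

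Guidance molecules of growing axons were measured in the adult. Of 30 genes 17 were higher in UON and 6 lower. Sema3b, a secreted semaphorin, stood at 295 and 299.6 FPKM in UON and 3.71 and 2.94 FPKM in retina (log2 fold change 7.18 ± 0.37 (SE), adjusted p = 2.75e-05). Ntn1, netrin 1, which guides ganglion cell axons into the optic disc in the embryo, stood at 6.31 and 6.09 FPKM in UON and 0.0272 and 0.138 FPKM in retina (log2 fold change 6.75 ± 0.598 (SE), adjusted p = 1.71e-04). Its receptor Dcc stood at 0.0756 and 0.0499 FPKM in UON and 2.55 and 2.603 FPKM in retina (log2 fold change -5.08 ± 0.402 (SE), adjusted p = 1.03e-04). Ligand and receptor thus lay on opposite sides. The receptor Robo1 stood at 8.03 and 6.401 FPKM in UON and 1.04 and 1.35 FPKM in retina (log2 fold change 3.604) and its ligand Slit2 at 63.3 and 48.3 FPKM in UON and 19.6 and 22.9 FPKM in retina (log2 fold change 2.68). Of 22 cadherins and tight junction genes 13 were higher and 1 lower. Cdh19, a cadherin of glia of the neural crest and nerve, stood at 31.5 and 23.4 FPKM in UON and 0.0204 and 0.1602 FPKM in retina, and Cdh1, E-cadherin, at 8.88 and 5.88 FPKM in UON and 0.209 and 0.233 FPKM in retina and 0.319 and 0.841 FPKM in MON. Cdh8, a neuronal cadherin, was the member lower in UON (0.0889 and 0 FPKM in UON and 5.55 and 4.38 FPKM in retina).

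Genes of sugar use were lower or not called. Of 22 glycolysis and lactate genes none was higher and 10 were lower (median -0.91), 13 with library-total scaling. Photoreceptors are known for strong aerobic glycolysis. Pkm, pyruvate kinase, stood at 423 and 443 FPKM in UON and 2029 and 1949 FPKM in retina (log2 fold change -1.72 ± 0.27 (SE), adjusted p = 0.00229), and Eno2, the neuronal enolase, at 21.4 and 19.7 FPKM in UON and 193 and 181 FPKM in retina (log2 fold change -2.83 ± 0.23 (SE), adjusted p = 1.26e-04). Hk2, a hexokinase of photoreceptors, stood at 8.09 and 10.8 FPKM in UON and 43.01 and 39.9 FPKM in retina and 3.69 and 4.27 FPKM in MON (log2 fold change -1.8004 ± 0.24 (SE), adjusted p = 0.00117). The calls of Aldoa, Eno1 and Gapdh were lost when single pools were left out. For Gapdh (585 and 585 FPKM in UON and 2007 and 2194 FPKM in retina) adjusted p = 0.093 without the male UON pool, 0.0726 without the female retina pool, 0.0516 without the male retina pool. For Aldoa, lost without any of the 4 pools, the highest adjusted p was 0.208, and for Eno1 it was 0.163. Ldhb, Slc16a1 and Slc2a1, which handle lactate and glucose in many cells, were not called (log2 fold change 0.38, 0.66 and -0.05). Of 12 common reference genes 4 were higher and 3 lower with TMM, and 2 and 4 with library totals. Actb, Ppia, Rpl19 and Sdha were not called (log2 fold change -0.42, 0.02, -0.26 and 0.43), and Hprt was lower (18.7 and 18.1 FPKM in UON and 177 and 174 FPKM in retina, log2 fold change -2.87).

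Cell stress and immediate early genes were read as 1 list of 16, of which 6 were higher in UON and 1 lower. Jun stood at 129 and 126 FPKM in UON and 22.8 and 21.4 FPKM in retina (log2 fold change 2.92) and Jund at 116 and 163 FPKM in UON and 25.9 and 29.2 FPKM in retina (log2 fold change 2.74). Fos, Egr1 and Atf3 were not called (log2 fold change 0.71, 0.45 and 1.04). Of 9 tested crystallins, Cryab, a small heat shock protein of glia, stood at 373 and 357 FPKM in UON and 47.8 and 47.3 FPKM in retina (log2 fold change 3.36). Crygs, a gamma-crystallin, stood at 10.7 and 13.4 FPKM in UON, 1.51 and 2.88 FPKM in MON and was listed at 0 in both retina pools (adjusted p = 2.14e-04). The lens genes Cryaa and Crybb3 were not called and stayed under 2 FPKM in each pool.

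In a list of 21 of the genes that the study itself names in naïve tissue 16 were higher in UON and 1 lower. The list was drawn from the study's own account of these samples, so its count is no independent evidence. It leaves out the integrin, laminin and other matrix genes that the study also names for naïve UON. The study reported matrix, adhesion, TGF-beta, Wnt and Hippo pathways as enriched in these same UON libraries. The counts of those lists above are therefore no independent evidence either. Cartpt, a neuropeptide precursor, stood at 4443 and 3146 FPKM in UON and 232 and 216 FPKM in retina (log2 fold change 4.496 ± 0.34 (SE), adjusted p = 8.12e-05; ENSMUSG00000021647, chromosome 13, 99898489 to 99901091, - strand) and 6.06 and 9.42 FPKM in MON. UON was thus highest and MON lowest (UON over MON log2 fold change 8.81 ± 0.41 (SE), adjusted p = 0.00139). Ptx3, a long pentraxin, stood at 16.97 and 15.5 FPKM in UON and 0.609 and 1.85 FPKM in retina (log2 fold change 4.35), Stat3, a transcription factor of cytokine signalling, at 75.9 and 85.8 FPKM in UON and 11.4 and 13.8 FPKM in retina (log2 fold change 3.04), and Sphk1, sphingosine kinase, at 22.1 and 13.2 FPKM in UON and 2.46 and 3.44 FPKM in retina (log2 fold change 2.89).

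The 10 genes most raised in UON, among those of at least 50 FPKM on average, were Itih3, Fgl2, Pamr1, Esm1, Dcn, Cxcl10, Col3a1, Aldh1a2, Islr and Itgb4. Itih3, which binds hyaluronan, stood at 79.1 and 73.4 FPKM in UON and 0.0424 and 0.0283 FPKM in retina (log2 fold change 11.04 ± 0.39 (SE), adjusted p = 2.49e-05). Pamr1 stood at 672 and 550.5 FPKM in UON and 0.566 and 0.475 FPKM in retina (log2 fold change 10.61 ± 0.39 (SE), adjusted p = 2.49e-05) and Islr at 669 and 602 FPKM in UON and 0.847 and 0.862 FPKM in retina (log2 fold change 9.896 ± 0.33 (SE), adjusted p = 2.49e-05). Pools of one tissue were close for these genes. Cxcl10, an interferon-induced chemokine, was uneven, at 148 and 26.5 FPKM in UON and 0 and 0.0839 FPKM in retina (log2 fold change 10.24 ± 1.31 (SE), adjusted p = 9.24e-04). The 10 most lowered were Lrit1, Neurod4, Ppm1n, Fabp12, Rcvrn, Neurod1, Pde6a, Cabp5, Mpp4 and AI847159. Lrit1, Neurod4 and Ppm1n were listed at 0 in both UON pools, against 58.9 and 72.3, 63.8 and 67.97 and 131 and 129.6 FPKM in retina. Neurod1, a bHLH factor of photoreceptors and interneurons, stood at 0.04897 and 0.0248 FPKM in UON and 171 and 173 FPKM in retina (log2 fold change -11.72 ± 0.47 (SE), adjusted p = 2.49e-05).

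Markers of tissues that could enter the dissection were read as lists, and only some of their members are named. The pigment epithelium and melanocyte list (12 genes, 1 higher and 3 lower in UON) summed to 46.02 and 54.5 FPKM in UON and 83.8 and 114 FPKM in retina. Skeletal muscle genes summed to 1.68 and 9.28 FPKM in UON and 11.9 and 10.2 in retina, with none of 6 called. Schwann cell genes summed to 33.3 and 24.8 FPKM in UON and 1.802 and 1.97 FPKM in retina, and 2 of 4 tested were higher in UON (median 4.76). Cdh19, a cadherin, carried most of that sum, at 31.5 and 23.4 FPKM in UON and 0.0204 and 0.1602 FPKM in retina (log2 fold change 8.52 ± 0.805 (SE), adjusted p = 2.28e-04), and Egr2, a transcription factor of myelinating Schwann cells, was the other gene called, at 0.991 and 0.925 FPKM in UON and 0 and 0.0630000 FPKM in retina. Pmp2, a myelin gene, was under 0.1 FPKM in each of the 4 pools. The part of Schwann cells in other values was not tested. The surface epithelium genes summed to 7.64 FPKM in the female UON pool and 68.1 FPKM in the male one, against 3.87 and 2.93 FPKM in retina. Krt15 carried most of it, at 0.939 and 40.4 FPKM in UON and 1.32 and 0.275 FPKM in retina. Of these 8 genes 1 was called, and the part of epithelium in other values of the male pool was not tested.

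The same tissues were compared in the injured eyes of other mice, which share no library with the naïve comparison. There were 10 UON and 10 retina libraries in 5 groups, and group and sex were terms of the fit. Of 20335 genes tested 5105 were higher in UON (25.1%) and 5500 lower (27.0%), 52.2% in all. Of 20206 genes tested in both, 3910 were higher in both comparisons, which is 93.1% of those higher in naïve and 76.8% of those higher in injured eyes. 2841 were lower in both, 88.9% of the naïve and 52.1% of the injured calls, and 0 were called in opposite directions. FPKM of the 10 and 10 libraries did not overlap in 40.9% of the genes tested.

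For each gene the lowest, the median and the highest of 10 injured libraries are given. Gfap ran 3410.4, 4081 and 5101 FPKM in UON and 10.99, 15.3 and 20.6 FPKM in retina (log2 fold change 8.47 ± 0.21 (SE), adjusted p = 6.00e-15), above its naïve level in each retina library. C4b ran 148, 301 and 430.3 FPKM in UON and 2.16, 5.82 and 16.03 FPKM in retina (log2 fold change 6.41 ± 0.26 (SE), adjusted p = 5.56e-13). Serping1 ran 356, 484 and 662 FPKM in UON and 6.54, 12.6 and 21.8 FPKM in retina (log2 fold change 5.56 ± 0.29 (SE), adjusted p = 1.45e-11). For these glial and complement genes the tissues stayed apart in every injured library, and all injured retina libraries lay above both naïve retina pools. Otx2 ran 0, 0.0286 and 0.903 FPKM in UON and 66.7, 93.9 and 109 FPKM in retina. Aqp1 ran 0.342, 0.939 and 9.46 FPKM in UON and 20.7, 23.7 and 34.7 FPKM in retina (log2 fold change -3.54 ± 0.56 (SE), adjusted p = 2.06e-05). No injured library of UON reached the lowest of retina for these genes. Stra6 ran 42.2, 107 and 286 FPKM in UON and 1.64, 2.32 and 4.11 FPKM in retina, and Gdf10 24.5, 71.3 and 105 FPKM in UON and 0.1204, 0.207 and 0.3499 FPKM in retina. Uchl1, which was not called in naïve mice, ran 109.8, 146 and 189 FPKM in UON and 43.8, 81.5 and 93.2 FPKM in retina and was called higher in UON (log2 fold change 1.41 ± 0.16 (SE), adjusted p = 5.78e-07). Nefh ran 0.0149, 15.4 and 32.8 FPKM in UON and 2.74, 8.61 and 14.7 FPKM in retina, overlapped widely and was not called (log2 fold change 0.799 ± 0.68 (SE), adjusted p = 0.298). Whether the difference between UON and retina itself changed with injury was tested as an interaction over 24 libraries, a test added after the data were seen. edgeR found 0 of 20413 genes at an adjusted p under 0.05, with 669 at an unadjusted p under 0.05 and a lowest adjusted p of 0.112, while DESeq2 without a filter on low counts found 305 of 47284.

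**Figure D5:**
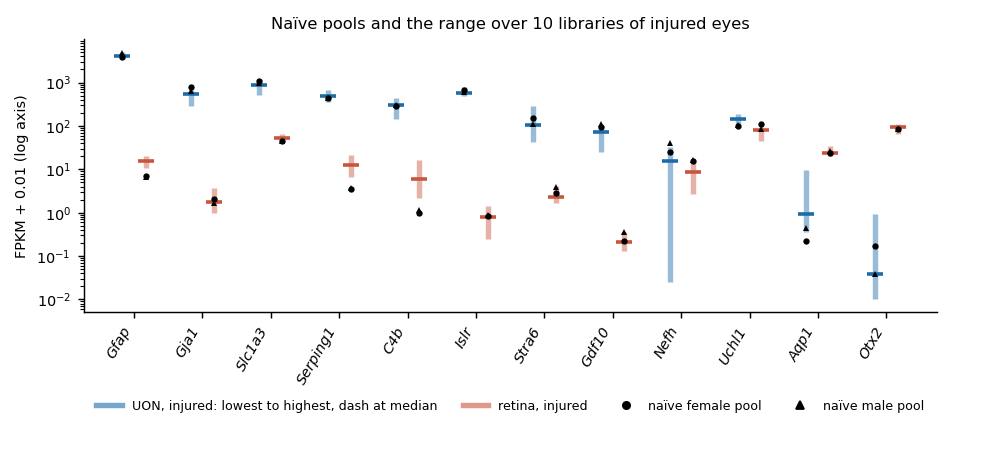
Level of 12 genes as FPKM plus 0.01 on a log axis. Bars run from the lowest to the highest of 10 libraries of injured eyes with a dash at the median, blue for UON and red for retina, and black circles and triangles are the naïve female and male pools. UON and retina stay apart for Gfap, Otx2 and most others, and overlap for Nefh.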

How the data were processed

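Total RNA of UON, MON and retina was sequenced as bulk RNA-seq (pairs of 150 base reads, ultra-low-input kit). Per the submitters' notes and methods, the authors used HISAT2 v2.2.1 on GRCm38 for alignment, and StringTie v1.3.0 with the Gencode M25 annotation for assembly. The deposited estimated counts per gene were made by the authors from transcript coverage with StringTie's count script, and are not normalized. FPKM were computed by the authors with StringTie and deposited for each gene, scaled to the mapped fragments of each library, and 15 values just below 0 were set to 0. Strand in counting was not given in the sources used here, so reads of a gene and of an antisense or overlapping partner cannot be told apart.

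Counts were taken as whole numbers and tested with edgeR 4.0.16 in R 4.3.3: filterByExpr (minimum count 10, minimum total 15), TMM, and the quasi-likelihood test on the 6 naïve libraries, whose model holds tissue and sex, with Benjamini-Hochberg adjustment over 23685 genes. The sex term is the pair block, since the same mice gave the 3 tissues. Paired pools did not deviate together (correlation of deviations -0.0007 for UON and retina). The biological coefficient of variation was 0.507 with 2 residual degrees of freedom. The p-values rest on how far the female to male difference varied over the 3 tissues, MON included. That spread was moderated by the other genes (median prior degrees of freedom 4.99). One read pair adds several counts, so counting noise is larger than the totals imply. The fit was also run on simulated counts of 22073 genes. The tissues shared the same mean there, except for 50 genes at each true change, drawn from the better counted genes. In these counts 82% and 90% of genes with true log2 changes of -2 and 2 were called, and 0.087% of unchanged genes. The real comparison called 31.7% of genes, and its split moved with the scaling, so these rates need not carry over to it. Alternatives were DESeq2 1.42.0, limma 3.58.1 on log2 FPKM, other scalings and filters, all 36 libraries, no sex term and each pool left out. Genes named are the members of 43 lists, the 10 largest changes each way of genes over 50 FPKM, and a few marked. The comparison and lists were chosen with earlier results of these data known. Promoter sequences came from RefSeq tables on GRCm38.p6. Some members of the lists are counted but not reported here by name.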

Additional observations from a re-analysis of the deposited data

Results flagged for a closer look

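For 3 listed genes the female and the male pair of pools pointed in opposite directions between UON and retina, and the difference was not tested. Tnmd, a tendon gene, had a log2 CPM ratio of -1.87 in the female pair and 1.90 in the male pair. Tyrp1, a pigment cell gene, had -2.60 and 1.41, at 0.0771 and 1.099 FPKM in UON and 0.795 and 0.509 FPKM in retina. Myh4, a muscle myosin, had -1.10 and 2.14. All 3 lie near or under 1 FPKM in every pool.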

How the results depend on the processing

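The 4301 genes higher and 3204 lower in UON stayed within 1.5 times of these counts under DESeq2 (4836 and 4173), other scalings, filters and fits, and the 4 libraries alone, with 1 exception. limma on log2 FPKM with a pseudocount of 0.1 called 6474 genes lower. Leaving out 1 pool gave 3854 to 4368 genes higher and 2486 to 3335 lower. Without the replicate block, that is without the sex term, the counts were 4492 and 3533. In injured eyes (5105 higher, 5500 lower) DESeq2 called 8571 genes lower, and without the replicate block the counts were 5142 and 5457. Lims1 turned from 1.09 to -0.35 with log2 FPKM at a pseudocount of 1 and to -0.37 at 0.1. The cause was not tested in these cases. Of 324 named genes called, 270 kept their call under every alternative that gave a value. Leaving out 1 pool ended 10 calls (female UON), 24 (male UON), 22 (female retina) or 22 (male retina), 41 genes in all. Of 1376 list counts under the alternatives 1254 stayed within 1.5 times. The comparison of UON with MON was run once, with no alternative. With 2 pools a tissue, a gene that was not called is not shown to have equal levels.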

Other observations

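Gene classes were unequally called. Of 16414 protein-coding genes tested 24.6% were higher in UON and 14.99% lower. Of 5111 long noncoding genes 4.11% were higher and 12.6% lower. Classes follow Gencode M21.

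A few genes outside the lists were picked after their values were seen. Kif5a, a neuronal kinesin heavy chain that carries cargo along axons, stood at 1857 and 2259 FPKM in UON and 21.9 and 23.3 FPKM in retina and 1428 and 875 FPKM in MON (log2 fold change 6.91 ± 0.47 (SE), adjusted p = 5.74e-05). Since the strand used in counting is not known, reads of an overlapping or antisense gene cannot be told apart in this value. In injured eyes it ran 6.39, 1257 and 3266 FPKM in UON and 10.3, 19.4 and 31.1 FPKM in retina (lowest, median and highest of 10), so the tissues overlapped there. Ptgds, prostaglandin D synthase, stood at 20834 and 11777 FPKM in UON and 202 and 213 FPKM in retina (log2 fold change 6.74 ± 0.599 (SE), adjusted p = 1.73e-04). Irgm2, an interferon-induced GTPase, stood at 45.7 and 11.4 FPKM in UON and 0.292 and 0.298 FPKM in retina (log2 fold change 6.598 ± 0.55 (SE), adjusted p = 1.33e-04), and Cxcl10, also interferon-induced, was likewise higher in the female than in the male UON pool.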
